A study of Homo sapiens with 12 samples.

Results

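The 9 microRNAs (miRNAs) described here are hsa-miR-34a-5p, hsa-miR-200c-3p, hsa-miR-138-5p, hsa-miR-140-3p, hsa-miR-142-5p, hsa-miR-148a-3p, hsa-miR-152-3p, hsa-miR-193a-3p and hsa-miR-197-3p (written below without the prefix), chosen by name because each has been described as lowering the immune checkpoint ligand PD-L1. They make up 9 of the 798 human miRNA probes measured, and all 9 were found in the table. The 9 were chosen with earlier results of these data known, and other miRNAs described as acting on PD-L1 are given separately below. Low counts of these 9 therefore do not describe PD-L1 miRNAs as a set. RNA of MOLM-14 and THP-1 cells was assayed with NanoString, which counts colour-barcoded probes bound to each miRNA with no amplification step. Both lines grow from human acute myeloid leukaemias of a monocytic kind. Each line was transduced with a lentivirus carrying either a short hairpin RNA (shRNA) against MUC1 or a scrambled hairpin, so every sample carries a lentiviral hairpin, and the 4 groups of line by hairpin hold 3 samples each. RNA came from successfully transduced cells, and no time after transduction is given in the labels. Labels conflict in silenced MOLM-14: the source name of replicate 2 reads MUC2 and that of replicate 3 reads MUC3, while the titles, which were followed, give MUC1. MUC1 itself is not on a miRNA panel, so its silencing has no check in these values.

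A miRNA guides a silencing complex to messenger RNAs that pair with its seed, the bases 2 to 8 from its 5′ end, and lowers their stability or translation. PD-L1, encoded by CD274, binds the receptor PD-1 on T cells and restrains them, and several miRNAs pair with the 3′ untranslated region of its messenger RNA. MUC1, a mucin anchored in the cell membrane, is studied for its oncogenic signalling. The published account of the study is known for reporting that MUC1 silencing raised miR-34a and miR-200c and lowered PD-L1 in these cells. This is given from general knowledge, as that account was not among the sources used here. Its values were not used, and the assay behind the reported rises is not known here. The limits below are therefore no like-for-like comparison with it.

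The mature sequences are shown because the seed, in capitals, sets which members can share targets and which other probes of the panel carry the same seed. They are from RefSeq (GRCh38.p14), 5′ to 3′, and all 9 members matched an entry.
miR-34a-5p: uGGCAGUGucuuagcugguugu
miR-200c-3p: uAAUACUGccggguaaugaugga
miR-148a-3p: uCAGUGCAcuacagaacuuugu
miR-152-3p: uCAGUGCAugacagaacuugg
miR-138-5p: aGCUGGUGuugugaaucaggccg
miR-140-3p: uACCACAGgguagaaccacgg
miR-142-5p: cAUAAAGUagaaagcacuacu
miR-193a-3p: aACUGGCCuacaaagucccagu
miR-197-3p: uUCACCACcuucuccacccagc
Only miR-148a-3p and miR-152-3p share a seed among these 9, and miR-148b-3p carries it too. In the RefSeq table the seed of miR-34a-5p was shared by the probes for miR-449a and miR-449b-5p, that of miR-200c-3p by miR-200b-3p and miR-429, and that of miR-193a-3p by miR-193b-3p.

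The members lie at separate places in the genome. miR-34a-5p comes from MIR34A on the minus strand of chr1:9151735-9151756, within the span of the long non-coding gene MIR34AHG, and miR-200c-3p from MIR200C on the plus strand of chr12:6963742-6963764, within MIR200CHG. miR-197-3p comes from MIR197 at chr1:109598940-109598961 (plus strand), within the span of the protein-coding gene GNAI3. miR-148a-3p comes from MIR148A at chr7:25949922-25949943 (minus strand), and miR-152-3p from MIR152 at chr17:48037174-48037194 (minus strand), within the span of COPZ2. miR-140-3p comes from MIR140 at chr16:69933142-69933162 (plus strand), within WWP2. miR-142-5p comes from MIR142 at chr17:58331283-58331303 (minus strand), within MIR142HG, and miR-193a-3p from MIR193A at chr17:31560050-31560071 (plus strand). miR-138-5p has the same mature sequence at MIR138-1 on chromosome 3 and MIR138-2 on chromosome 16, so its probe cannot tell these apart.

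The 12 libraries held 9002 to 20418 counts in total, with a median probe at 10 to 15.5 counts. Background was described by 622 other probes that stayed above 1 and under 30 counts in all 12 samples, since no negative control probes were used here. Their mean was 10.2 to 15.1 counts per library, the SD between probes was 4.01 to 5.16, and their 95th percentile was 17 to 24 counts. Scrambled MOLM-14 replicates 2 and 3 did not differ past the threshold in a chi-square test of their counts, over all probes (1.08 per degree of freedom, p = 0.0521) or over the 67 probes of at least 30 counts in 3 samples (1.23, p = 0.0951). The pairs with replicate 1 did (1.53 and 1.59 over all probes), and replicates 2 and 3 entered each mean and SD as 1 value, their average. A test that does not pass cannot show that these are 1 sample measured again, so the averaging was a precaution. The fits below, with their p-values and intervals, kept replicates 2 and 3 as separate samples unless the averaged pair is named. Scrambled THP-1 replicates 1 and 3 were as close over all probes (1.07 per degree of freedom), but over the 67 probes (1.51) they differed past the threshold of 0.05, and they were kept apart. In silenced THP-1 the 3 pairs lay at 0.990 to 1.10 over all probes, where only replicates 1 and 3 differed past the threshold (chi-square p = 0.0318). Over the 67 probes they lay at 0.944 to 1.06 (chi-square p = 0.351 to 0.606), closer than the averaged pair. No pair stood out from the others of its group, and none was merged. The n of 3 in silenced THP-1 may therefore also overstate the independent samples. Silenced MOLM-14 replicate 2 stood apart, with Pearson r of counts of 0.654 and 0.697 with the other replicates against 0.961 between those, and it held 888 counts of miR-16-5p against 55 and 57. Separate cultures are not stated in the labels, so each p-value reflects the spread of these samples alone, which may be technical. In bulk RNA, fewer cells with a miRNA and less of it per cell cannot be told apart.

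Against this background the members were low in most groups, the highest being miR-197-3p in scrambled THP-1 at 16.2 counts above the background mean. Their 108 values ran from 2 to 37 counts, 8 of the 9 stayed under 30 counts in every sample, and only miR-197-3p passed 30, in 1 sample. In 10 of the 108 values a member exceeded the 95th percentile of background probes in its library, against 4.37% of the values of the background probes themselves. miR-34a-5p and miR-197-3p gave 4 each of these 10 values, and miR-148a-3p and miR-193a-3p gave 1 each. miR-200c-3p, miR-138-5p, miR-140-3p, miR-142-5p and miR-152-3p never exceeded it. Relative to the mean of background probes in each library, averaged over the 12 samples, miR-34a-5p was at 1.47 and miR-197-3p at 1.45. These levels lay above 98.1% and 97.4% of the background probes. Those probes were chosen to stay under 30 counts in every sample, so the choice itself cuts their upper tail. The 4.37% comes from the same cut set, and miR-197-3p falls outside that set. Among all 798 probes, miR-34a-5p ranked 116 and miR-197-3p ranked 123 from the top by mean level. miR-148a-3p (1.16), miR-140-3p (1.15), miR-200c-3p (1.10), miR-193a-3p (1.07) and miR-138-5p (1.05) lay close to the background mean. miR-152-3p (0.775) and miR-142-5p (0.706) lay below it, and a count at the background mean does not show that a miRNA was present.

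**Figure D1:**
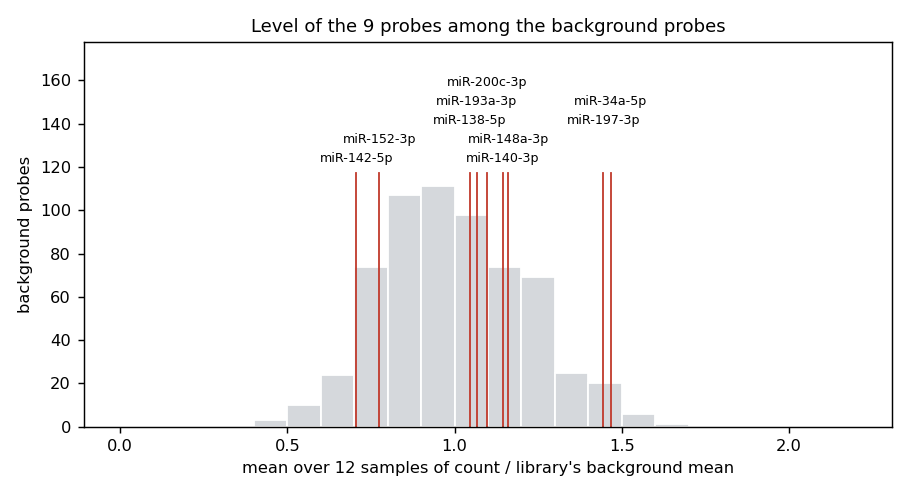
Histogram of the 622 background probes by their level, the mean over 12 samples of the count divided by the library's background mean, with the 9 members as red lines. miR-34a-5p and miR-197-3p sit in the upper tail at 1.47 and 1.45, and the other 7 sit between 0.706 and 1.16.

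miR-34a-5p is transcribed under p53 and its sites in the PD-L1 message have been described in lung cancer. It had 19, 14 and 11 counts in silenced MOLM-14 replicates 1, 2 and 3 against 21, 28 and 19 in scrambled MOLM-14. In THP-1 it had 26, 18 and 8 counts in silenced against 20, 26 and 26 in scrambled samples. Unscaled, the silenced samples were the lower ones on average in both lines, but the groups met at 19 counts in MOLM-14 and overlapped in THP-1, where the silenced libraries were also shallower. Group means were 14.7 ± 4.04 (SD, n = 3) against 22.3 ± 1.77 (n = 2) in MOLM-14 and 17.3 ± 9.02 against 24 ± 3.46 (n = 3 each) in THP-1. Summed over the 3 samples, silenced MOLM-14 held 44 counts (exact 95% Poisson interval 32.0 to 59.1) and scrambled MOLM-14 68 (52.8 to 86.2). Such intervals cover counting error only. Above the background mean of its own libraries, miR-34a-5p stood 8.67 ± 0.443 counts higher in scrambled MOLM-14 (n = 2) and 9.89 ± 2.78 higher in scrambled THP-1 (n = 3), and 2.56 ± 2.98 and 4.85 ± 6.96 higher in the silenced groups (n = 3 each).

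miR-200c-3p represses the ZEB factors that drive loss of epithelial character, and PD-L1 has been described as a target of its family. Its counts were 19, 14 and 8 in silenced MOLM-14 against 18, 12 and 17 in scrambled MOLM-14. In THP-1 they were 11, 15 and 13 in silenced against 11, 19 and 16 in scrambled samples. The groups overlapped in both lines, and no sample was outside the range of 8 to 19 counts. Means were 13.7 ± 5.51 (SD, n = 3) against 16.3 ± 2.48 (n = 2) in MOLM-14 and 13 ± 2 against 15.3 ± 4.04 (n = 3 each) in THP-1, which in no group stood over 2.67 counts above the background mean of its libraries.

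**Figure D2:**
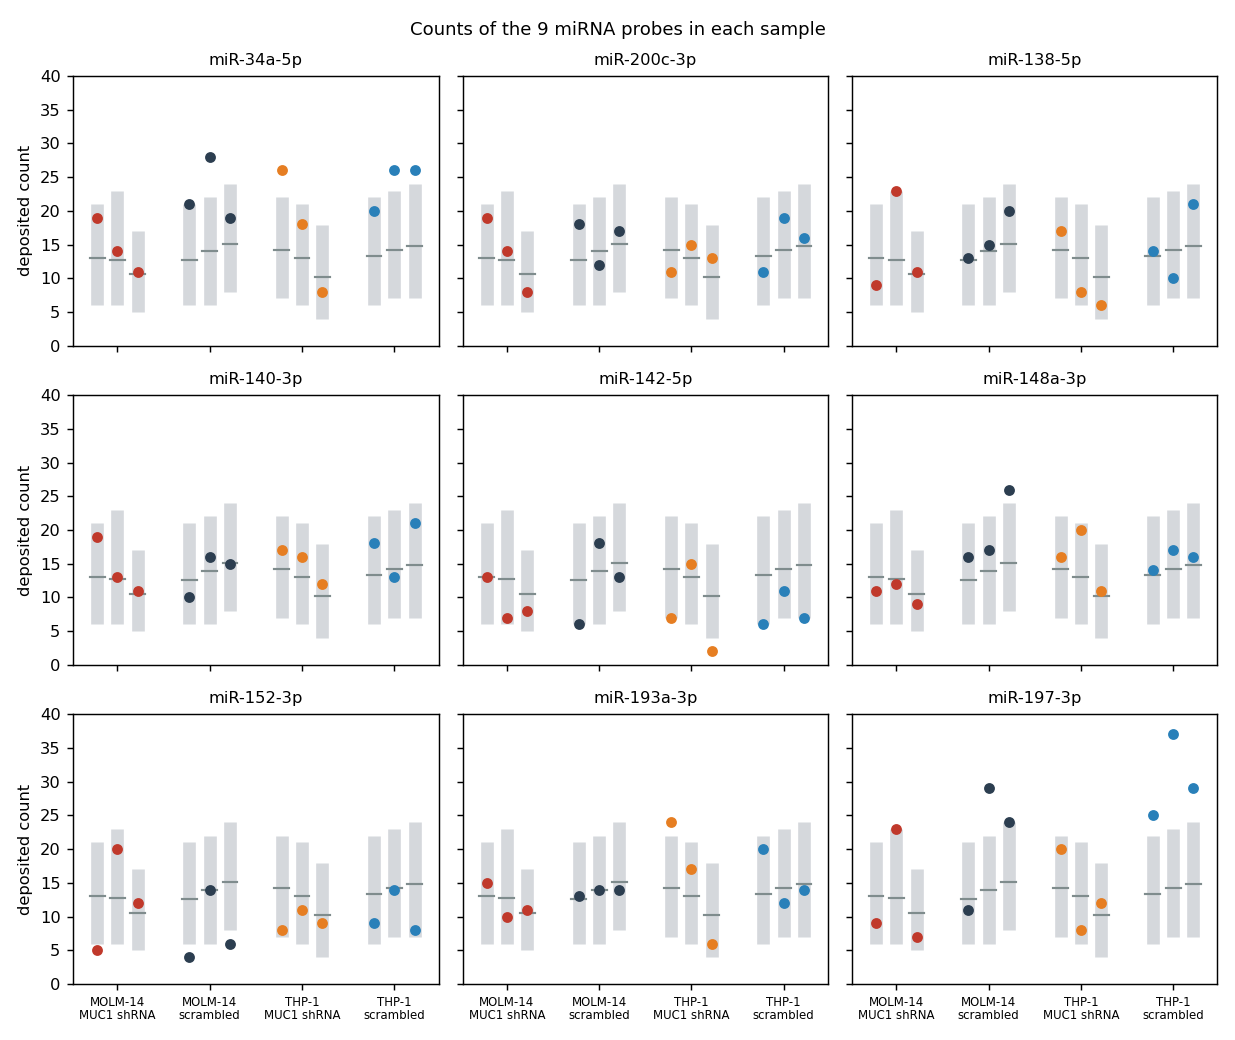
Deposited count of each member (points, vertical axis) in each of the 12 samples (replicates 1 to 3 from left to right within a group), over the range from the 5th to the 95th percentile of background probes in that library (grey bar) and their mean (grey tick). Most points lie inside the bars, miR-34a-5p and miR-197-3p rise above them in 4 samples each, and miR-197-3p reaches 37 counts in scrambled THP-1.

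The hairpin effect was then fitted over all 798 probes in 1 edgeR quasi-likelihood model, with adjusted p-values over all of them and a threshold of 0.05. No member passed in MOLM-14, where 1.25% of all probes passed (10 probes, 0.627% higher and 0.627% lower), in THP-1, where 2.63% passed (21 probes, 0.376% higher and 2.26% lower), or in the mean of the lines, where 2.01% passed (16 probes, 0.251% higher and 1.75% lower). None passed in the difference between the lines' effects either (1.88% of all probes, 0.376% higher and 1.5% lower) or between the scrambled lines (0.251%). At an unadjusted p under 0.05, 1 member lay in MOLM-14 (9.15% of all probes), 1 in THP-1 (9.52%), 1 in the mean (9.02%), 1 in the difference (10.9%) and 0 between the scrambled lines (7.52%), shares near the background for a list of 9. The median log2 fold change of the 9 was -0.02 in MOLM-14, 0.01 in THP-1 and -0.01 in the mean, beside -0.01, 0.02 and 0.02 over all probes. The counts of calls over all probes depend on the scaling: with library totals 49 probes passed in THP-1, 34 of them higher, against 3 of 21 higher here.

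The fit did not call a rise of miR-34a-5p. Its log2 fold change was -0.45 ± 0.31 (SE) in MOLM-14 with a 95% interval from -1.10 to 0.20, and -0.27 ± 0.30 in THP-1 with an interval from -0.90 to 0.36. The upper ends correspond to 1.15-fold and 1.28-fold, so rises of the counted signal beyond these lay outside the intervals. In the mean of the lines the value was -0.36 ± 0.22 (-0.81 to 0.09), an upper end of 1.07-fold and a lower end equal to a fall of 1.76-fold. With scrambled MOLM-14 replicates 2 and 3 averaged into 1 sample the upper end was 1.18-fold in MOLM-14 and 1.07-fold in the mean.

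miR-200c-3p gave -0.02 ± 0.32 (-0.69 to 0.65) in MOLM-14 and -0.01 ± 0.32 (-0.69 to 0.67) in THP-1. The upper ends were 1.57-fold and 1.59-fold, and 1.38-fold in the mean of the lines (-0.01 ± 0.23). A rise of its counted signal by 2-fold therefore lay outside the intervals in each line, and one of 1.5-fold did not. This held for the scaling over all probes. With library totals the upper end for miR-200c-3p in THP-1 was 2.38-fold, and with TMM factors from the probes of at least 30 counts in 3 samples it was 2.47-fold. These scalings also moved the median log2 fold change of all 798 probes in THP-1 to 0.55 and 0.56. Scaling over all probes, most of them background probes, holds that median near 0 by its design. The median therefore cannot tell which scaling is right. Library totals and TMM from the probes of 30 counts turned the value of miR-34a-5p in THP-1 to 0.26 in each case, with intervals that held 0 and upper ends of 1.88-fold and 1.90-fold. Scaling by background probes stayed close to the scaling over all probes, at -0.32 for miR-34a-5p and -0.05 for miR-200c-3p in THP-1.

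These limits are limits on the whole count, background included. In counts at the mean library size, the upper end for miR-34a-5p was a gain of 3.19 counts in MOLM-14 and 6.27 in THP-1, and for miR-200c-3p a gain of 8.46 and 8.30. If the probe's own background equalled the mean of the background probes, scrambled cells held 8.42 (MOLM-14) and 9.11 (THP-1) counts of miR-34a-5p above it. With that part taken as exact, the upper ends would be 1.38-fold and 1.69-fold of it. The fit with 10 counts subtracted from every value gave upper ends of 1.35-fold and 2.21-fold. For miR-200c-3p the part above the background mean was only 1.80 and 1.05 counts, and its upper ends would be 5.70-fold and 8.90-fold of that part. These folds, too, take that part as exact. In deposited counts, miR-200c-3p stood 2.67 ± 3.8 (SD, n = 2) above the background mean in scrambled MOLM-14 and 1.23 ± 3.54 (n = 3) in scrambled THP-1. A part so near 0 sets no upper limit. Rises of miR-200c-3p itself beyond these folds were thus not excluded either, even though the counted signal was nearly level. The background of each probe is unknown, so these last folds hold only under that assumption.

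**Figure D3:**
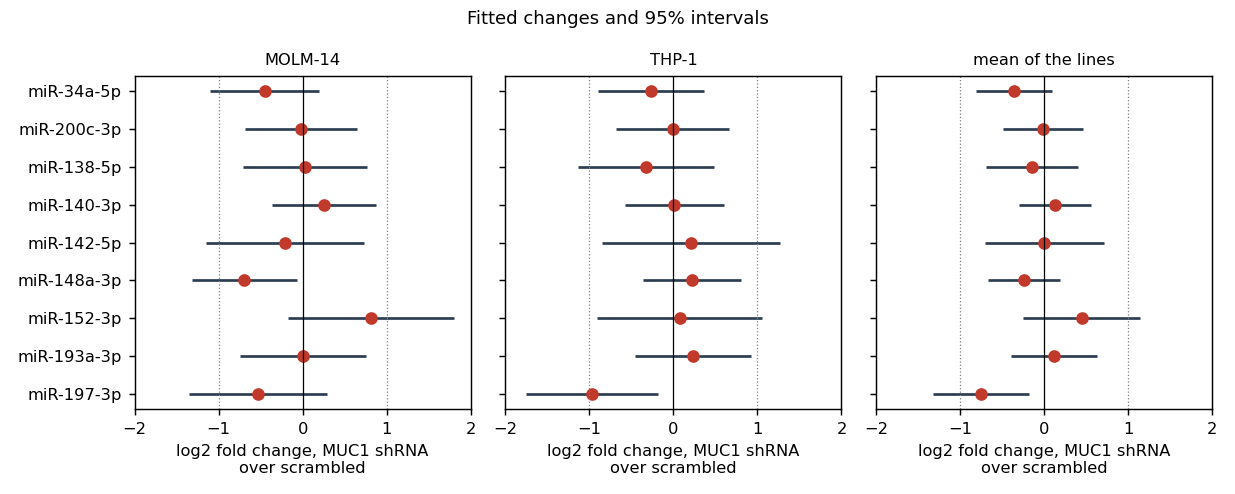
Log2 fold change of MUC1 shRNA over scrambled (points) with 95% intervals from the edgeR fit (bars) for the 9 members in MOLM-14, THP-1 and the mean of the lines; dotted lines mark 2-fold changes. The intervals of 8 members include 0 in each panel, the exceptions being miR-148a-3p in MOLM-14 and miR-197-3p in THP-1 and in the mean, both below 0.

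miR-197-3p, which has been described as lowering PD-L1 indirectly through CKS1B and STAT3 in lung cancer, was the member with the highest counts. It had 25, 37 and 29 counts in scrambled THP-1 against 20, 8 and 12 in silenced THP-1. All 3 silenced samples lay below all scrambled ones, as did 13.9% of all 798 probes in that line. Scrambled THP-1 was the only group in which all 3 samples exceeded the 95th percentile of background, and silenced THP-1 stood 0.849 ± 5.45 counts above the background mean against 16.2 ± 5.81 in scrambled THP-1 (SD, n = 3 each). The log2 fold change was -0.97 ± 0.38 (-1.76 to -0.18, unadjusted p = 0.0175), which did not pass (edgeR adjusted p = 0.29). The size of this difference is uncertain, because the silenced counts lay at background. Total counts were lower in silenced THP-1 too, at 9002 to 12613 against 17123 to 20418, and 14 to 32 probes reached 30 counts against 54 to 65. The part of these differences in the result was not tested.

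In MOLM-14 miR-197-3p had 9, 23 and 7 counts in silenced against 11, 29 and 24 in scrambled samples, groups that overlapped, with a log2 fold change of -0.53 ± 0.39 (-1.35 to 0.29). The mean of the lines was -0.75 ± 0.27 (-1.32 to -0.18, edgeR adjusted p = 0.302). Silenced MOLM-14 replicate 2, the library that stood apart, held the high silenced value of 23. Without it the change was -1.16 in MOLM-14 (edgeR adjusted p = 0.162), and miR-197-3p passed in THP-1 (-0.97, edgeR adjusted p = 0.0198) and in the mean (-1.07, edgeR adjusted p = 0.000676). It also passed in THP-1 when only the THP-1 samples were fitted (-0.95, edgeR adjusted p = 0.0283). Over 25 alternative settings in THP-1 its change was below 0 in 25 and past the threshold in 3, with edgeR or limma adjusted p from 0.0144 to 0.781. DESeq2, 1 of these settings, gave -0.97 (-1.845 to -0.09) and no adjusted p. The 5p strand of the same hairpin, miR-197-5p, ran from 12 to 31 counts and gave 0.34 ± 0.32 in THP-1 (-0.32 to 1.00) and -0.37 ± 0.33 in MOLM-14.

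**Figure D4:**
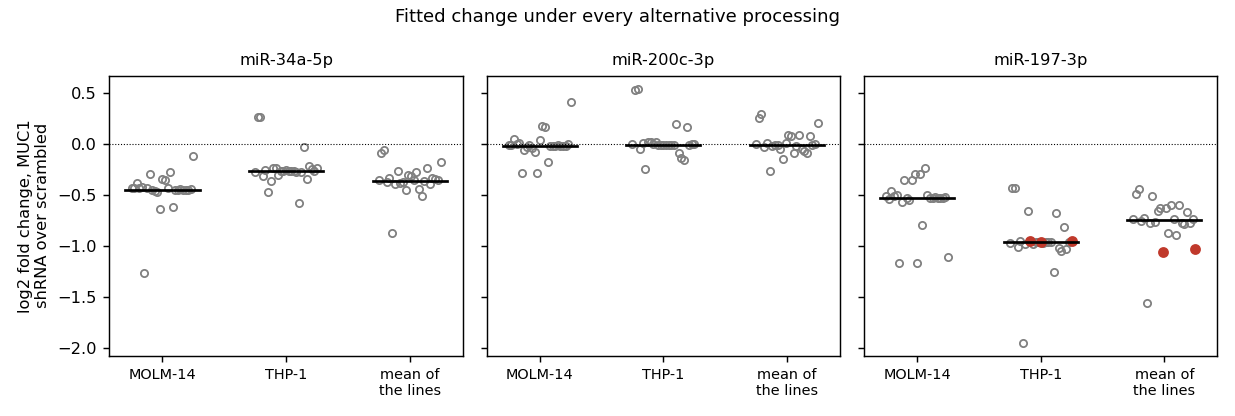
Log2 fold change of MUC1 shRNA over scrambled for miR-34a-5p, miR-200c-3p and miR-197-3p under every alternative setting (circles; filled red where the adjusted p was under 0.05) and in the fit of all 12 samples (black line). Values of miR-197-3p lie below 0 in each comparison and pass in 3 settings in THP-1 and 2 in the mean, while miR-200c-3p lies on both sides of 0.

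miR-148a-3p and miR-152-3p, which share a seed and have been described as acting on PD-L1 in colorectal and gastric cancer, did not pass in either line. miR-148a-3p had 11, 12 and 9 counts in silenced against 16, 17 and 26 in scrambled MOLM-14, with no overlap, as 10% of all probes lay lower in every silenced sample. No member lay higher in every silenced sample, where 1.13% of all probes did in MOLM-14 and 1.5% in THP-1. Its log2 fold change was -0.69 ± 0.29 (-1.31 to -0.07, unadjusted p = 0.025), which did not pass (edgeR adjusted p = 0.392), and without scrambled replicate 3, which held the 26 counts, the interval reached a rise of 1.14-fold. In THP-1 its counts were 16, 20 and 11 against 14, 17 and 16, and the fit gave 0.22 ± 0.27 (-0.37 to 0.80). With library totals this became 0.75 (0.12 to 1.37, edgeR adjusted p = 0.11), under the scaling that moved all probes to a median of 0.55. The difference between its effects in the lines was 0.91 ± 0.40 (0.06 to 1.76, edgeR adjusted p = 0.385).

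miR-152-3p had 5, 20 and 12 counts in silenced against 4, 14 and 6 in scrambled MOLM-14, overlapping groups in which replicate 2 was the highest of each. The fit gave 0.81 ± 0.47 (-0.17 to 1.80, edgeR adjusted p = 0.695), an upper end of 3.48-fold, the widest of the members in that line. Without scrambled replicate 2 that end moved to 6.45-fold, and without silenced replicate 2 to 2.45-fold. Without both silenced samples whose source names read MUC2 and MUC3, the values in MOLM-14 were -0.55 (-1.94 to 0.84) for miR-152-3p and -0.71 (-1.68 to 0.27) for miR-148a-3p. In THP-1 its counts ran from 8 to 14 and the fit gave 0.08 ± 0.47. miR-148b-3p, of the same seed, ran from 10 to 39 counts and did not pass in either line.

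The other 4 members stayed between 2 and 24 counts with overlapping groups in both lines. miR-138-5p, described as acting on PD-L1 in colorectal cancer, ran from 6 to 23 counts, with its highest value in silenced MOLM-14 replicate 2, and gave 0.03 ± 0.36 in MOLM-14 and -0.32 ± 0.39 in THP-1. miR-140-3p, the more abundant strand of a hairpin known for its role in cartilage, ran from 10 to 21 counts and gave 0.26 ± 0.30 and 0.01 ± 0.28. miR-193a-3p, a tumour suppressor silenced in some leukaemias with the AML1/ETO fusion, ran from 6 to 24 counts, both in silenced THP-1, and gave -0.00 ± 0.36 and 0.23 ± 0.33. miR-142-5p, from a hairpin of the blood lineage, ran from 2 to 18 counts, lay above the background median in 2 of 12 libraries, and gave -0.21 ± 0.45 and 0.21 ± 0.51. The upper ends of their intervals were 1.66-fold to 1.84-fold in MOLM-14 and 1.40-fold to 2.41-fold in THP-1. In the mean of the lines the upper end was under 2-fold for 8 of the 9 members and under 1.5-fold for 6, with miR-152-3p the exception at 2.21-fold, and the lower end was a fall of under 2-fold for 8, with miR-197-3p at 2.50-fold.

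The spread within groups differed between members. The variance over the mean, with counts scaled to the background level, was 1.46 at the median of the 9 and 0.426 to 2.55 over them, against a median of 0.988 for background probes with 5th and 95th percentiles of 0.363 and 2.24. A ratio of 1 is what independent counting gives. miR-197-3p (2.55), miR-152-3p (2.48) and miR-142-5p (2.27) varied most, and miR-148a-3p (0.426) and miR-140-3p (0.483) least. Between members, the pairwise Pearson r of log2 scaled counts over the 12 samples had a median of -0.03 over 36 pairs, beside 0.0005052 over the pairs of background probes.

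The probes whose pattern over the 12 samples was most like miR-34a-5p were miR-1307-3p (Pearson r of log2 scaled counts 0.89), miR-212-3p (0.86) and miR-1269b (0.79), of 768 probes searched. For miR-200c-3p they were miR-323a-3p (0.80), miR-651-5p (0.80) and miR-141-3p (0.76), the last made from the same primary transcript as miR-200c. The best match of a typical background probe was as high, at a median r of 0.80. The best match of miR-34a-5p lay at the 95.8th percentile of these and that of miR-200c-3p at the 48.4th. The points share library and depth, and no p is given.

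Probes for the same hairpins and their transcript partners were equally low. The list of 13 miRNAs had 7 probes on the panel, and 6 of these stayed under 30 counts throughout; none passed in either line or in the mean. miR-142-3p, known as one of the most abundant miRNAs of blood cells, ran from 10 to 23 counts and exceeded the 95th percentile of background in 2 of 12 libraries. miR-141-3p ran from 6 to 23 counts. Of 7 other probes with a member's seed, 6 stayed under 30 counts and none passed. Over all probes 1.25% passed in MOLM-14, 2.63% in THP-1 and 2.01% in the mean, so 0 of 7 is near these shares for either list. The 5 probes for miRNAs typical of epithelia (miR-200a-3p, miR-200b-3p, miR-141-3p, miR-205-5p and miR-203a-3p) ran from 4 to 26 counts, with 5 of their 60 values above the 95th percentile of background. Of 3 miRNAs of the blood lineage, miR-223-3p and miR-155-5p reached 53 and 94 counts and passed as lower in THP-1, while miR-142-3p did not pass. In that line 2.26% of all probes passed as lower. Of the 67 probes with at least 30 counts in 3 samples, fitted alone, 16 passed as lower and 10 as higher there. miR-223-3p, a miRNA of granulocytes and monocytes, had 11, 8 and 8 counts in silenced against 47, 41 and 53 in scrambled THP-1, with an edgeR adjusted p of 0.000104, and did not pass in MOLM-14. The difference between the lines passed for it (edgeR adjusted p = 0.0159).

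Among 25 further probes for miRNAs described as acting on PD-L1, 15 stayed under 30 counts throughout. No probe of the list passed as higher in either line. In MOLM-14 2 fell and 23 did not pass, where 0.627% of all probes passed as lower. In THP-1 4 fell and 21 did not pass, where 2.26% of all probes passed as lower. The median log2 fold changes of the list were -0.05 in MOLM-14 and -0.09 in THP-1. All probes include the 622 background probes. Fitted alone, the 67 probes with at least 30 counts in 3 samples gave 6 lower and 5 higher in MOLM-14. In THP-1 they gave 16 lower and 10 higher. The list was chosen with earlier results of these data known. These shares therefore cannot show an excess of falls among PD-L1 miRNAs. The largest value of the list in MOLM-14 did not pass: miR-16-5p, of the miR-15/16 family, had 55, 888 and 57 counts in silenced against 29, 65 and 78 in scrambled samples, and a log2 fold change of 2.66 ± 0.65 (1.31 to 4.01, edgeR adjusted p = 0.0596). Its highest count was in the library that stood apart. miR-93-5p, a relative of the miR-17-92 cluster, had 12, 19 and 23 counts in silenced against 33, 74 and 78 in scrambled MOLM-14, and 25, 22 and 20 against 100, 126 and 94 in THP-1. Its log2 fold changes were -1.54 ± 0.32 (edgeR adjusted p = 0.0229) and -2.03 ± 0.31 (edgeR adjusted p = 0.000191). miR-15b-5p, of the miR-15/16 family that restrains BCL2 and cyclins, changed by -1.27 ± 0.30 in MOLM-14 (edgeR adjusted p = 0.0382) and by -3.19 ± 0.32 in THP-1 (edgeR adjusted p = 9.7e-07). miR-155-5p, an inflammatory miRNA, fell in THP-1 from 73, 73 and 50 counts to 29, 20 and 20 (-1.30 ± 0.27, edgeR adjusted p = 0.00478).

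The joint probe for miR-20a-5p and miR-20b-5p had a log2 fold change of -1.11 ± 0.30 in THP-1 (edgeR adjusted p = 0.0472), a call lost in 15 of 26 settings. The THP-1 calls of miR-15b-5p and miR-93-5p were kept in all 26 settings. In MOLM-14 they were lost in 12 and 6 settings. Both were lost with only the MOLM-14 samples, with the averaged pair, and without scrambled MOLM-14 replicate 2 or 3 or silenced THP-1 replicate 1 or 2. miR-15b-5p was also lost with scaling by background probes and without silenced MOLM-14 replicate 3 or any other THP-1 sample. The THP-1 call of miR-155-5p was lost in 4, with library totals, with TMM from the probes of 30 counts, and without silenced THP-1 replicate 2 or scrambled THP-1 replicate 1. The silenced THP-1 counts of these probes lay at 12 to 29, near background, so the sizes of these changes are uncertain. In the mean of the lines miR-15b-5p, miR-93-5p and miR-155-5p passed and were lower, and the call of miR-155-5p was lost under these same scalings by library totals and by TMM from the probes of 30 counts. The difference between the lines passed for miR-15b-5p (edgeR adjusted p = 0.0159) and for miR-21-5p (-1.50 ± 0.38, edgeR adjusted p = 0.0402), an oncogenic miRNA that passed in neither line.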

How the data were processed

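The table the authors deposited gives NanoString counts of 798 probes in each of the 12 samples. Its unit was taken from the values, whole numbers with unequal sums and a minimum of 1. Neither the counting software nor any background or lane correction is named (not given in the sources used here), and 29 probes held a value of 1 in at least 1 sample, so some counts may have been floored by the authors. The depth of 9002 to 20418 counts per sample limits changes near background.

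Samples were grouped by title. All 798 probes, with no count filter, were scaled with TMM factors and fitted in edgeR 4.0.16 (R 4.3.3) as 4 group means. Intervals are at 95% from the fit's standard error, never narrower than counting error. Adjusted p-values are Benjamini-Hochberg over 798 probes. The code was tested on simulated data. Alternatives used DESeq2 1.42.0, limma 3.58.1 (pseudocounts of 1 and 10), other scalings and filters, subtraction of 10 counts, a replicate block, only the groups compared and samples left out. The filter of 10 counts in 3 samples keeps all 9 members and that of 30 counts in 3 samples keeps none.

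Members and lists were chosen with earlier results of these data known. All members are named, with every list probe past the threshold and otherwise up to 4 a list of high mean count. The lists are hairpin partners, same seed (miR-34c-5p by its known family), other PD-L1 miRNAs, blood lineage and epithelial miRNAs. Leaving out silenced MOLM-14 samples by source name, and probes with a value of 1, were alternatives chosen after seeing the data.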

Additional observations from a re-analysis of the deposited data

How the results depend on the processing

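No member passed in MOLM-14, in the difference between the lines or between the scrambled lines under any alternative that gave a value. The number of members past the threshold, for THP-1 as for both lines averaged, was 0 with all samples and 0 to 1 when leaving out 1 sample. It was 1 in THP-1 with only the groups compared and 1 in THP-1 and in the mean without both silenced MOLM-14 samples whose source names read MUC2 and MUC3, an alternative chosen after seeing the data. That member was miR-197-3p each time, at -0.95 in THP-1 with only the groups compared and at -0.95 and -1.03 in THP-1 and the mean without both samples, and at -0.97 and -1.07 without silenced MOLM-14 replicate 2 (leaving out 1 sample gave -1.26 to -0.68 in THP-1 and -1.07 to -0.60 in the mean); the cause was not tested. Whether the replicate numbers of the labels pair the samples was not settled. Deviations of same-numbered samples correlated at -0.06 to 0.12, against -0.14 to 0.08 for different numbers in the same line. The highest values, 0.12 each, were those of MOLM-14 replicates 1 and 2 with their own numbers. With the replicate block 0 members passed, with miR-34a-5p at -0.47 in MOLM-14 and -0.30 in THP-1. The block put miR-152-3p in MOLM-14 at 0.82 (0.02 to 1.62), and 23 probes were called in MOLM-14 against 10. No blocked value was possible between the scrambled lines. Signs of members whose intervals held 0 changed in 28 of 225 alternative values in MOLM-14, 24 of 225 in THP-1 and 25 of 216 in the mean, in none of them with an interval that excluded 0. Over all probes, calls in MOLM-14 were 24 with library totals, 22 with TMM from probes of 30 counts, 16 with 10 counts subtracted, 5 with background scaling, 2 with the averaged pair, 1 with only the groups compared and 1 to 30 when leaving out 1 sample. In THP-1 they were 21, against 49 with totals, 48 with TMM from probes of 30 counts, 39 with only the groups compared and 17 to 31 when leaving out 1 sample. Values of members above background numbered 10 of 108, 1 against 30 counts and 5 against the median plus 2 scaled median absolute deviations.

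With 10 counts subtracted the upper end for miR-200c-3p was 4.59-fold in MOLM-14 and 4.91-fold in THP-1, and for miR-34a-5p 1.35-fold and 2.21-fold. Over the other 24 settings miR-34a-5p stayed at 1.06-fold to 1.55-fold in MOLM-14 and 1.11-fold to 1.90-fold in THP-1, and miR-200c-3p at 1.30-fold to 2.35-fold and 1.34-fold to 2.47-fold. For miR-197-3p in MOLM-14 the upper end of 1.22-fold became 0.788-fold without silenced replicate 2. Depth limits every member: at about 13 background counts per probe, a change of a few counts is within counting error.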
